A study of Schmidtea mediterranea with 96 samples.

Results

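The 200 transcripts described here reached their largest difference from the start of regeneration at 10 days after amputation, in small fragments of the planarian *Schmidtea mediterranea*. For each of 36035 transcripts the mean FPKM (fragments or reads per kilobase of a transcript and per M reads of its library) of the 4 libraries of a time was compared with that of freshly cut fragments as log2((mean + 1) / (mean at 0 hr + 1)). A member had its largest absolute difference over the 16 later times at 10 days, a difference of at least 1 there and a mean of at least 2 FPKM there. This held for 418 transcripts, of which the 200 with the highest difference were kept. The members were thus chosen by their FPKM values in the time course, which are given as a description with no test.

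All animals were wild type and had been starved for at least 7 days. An asexual strain (CIW4) and a sexual line (S2F8) were kept, and the labels do not say which of them gave which library. Regenerating fragments were cut from one side of the animal and collected whole at 17 times from 0 hr to 14 days, with 4 libraries per time. Other libraries came from live cells sorted by Hoechst, a DNA dye, into X1, X2 and Xins (3 libraries each), from whole animals 24 hours after 10000 rads of gamma irradiation and untreated (3 libraries each, 5 worms per library), and from fixed cells sorted as PIWI-1 high, low and negative (4 libraries each). The labels do not say whether libraries of 1 group came from separate cultures. A p-value here thus sets a difference only against the scatter between libraries, which may be technical.

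A planarian fragment rebuilds its missing parts from neoblasts, the dividing stem cells of the adult worm, whose progeny leave the cell cycle and turn into the specialised cells of every organ. X1 cells are mostly neoblasts that have copied their DNA, X2 cells mix the remaining neoblasts with cells that have lately left the cycle, and Xins cells, which radiation spares, are mostly differentiated. PIWI-1 is a protein that neoblasts make and that lingers for a time in their progeny, so PIWI-1 negative cells are largely differentiated. In the first days after a cut, a fragment closes the wound and its neoblasts divide. Over the following days new tissue is formed and old tissue is reshaped to the proportions of a small worm. The files do not pair the identifiers with gene names, so no member can be given a name or a role. Transcripts that are close copies of each other may share reads, which could not be checked.

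Depth was 9.54 to 20.2 M reads in the regeneration libraries, 33.8 to 40.1 M in the sorted X cells and whole animals, and 24.2 to 44.3 M in the PIWI-1 sorts. In the regeneration libraries 1 read on a transcript of 1 kb equalled 0.0496 to 0.105 FPKM.

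The members stood near their starting level for the first 2 days and climbed between 60 hr and 10 days. The median of the 200 member means was 1.80 FPKM at 0 hr, 1.53 at 6 hr, 1.79 at 24 hr and 1.99 at 48 hr. It was 2.27 at 60 hr, 2.93 at 72 hr, 4.04 at 4 days, 5.99 at 5 days, 7.47 at 6 days, 8.27 at 7 days, 10.1 at 10 days and 8.91 at 14 days. The 4 libraries of a time lay close together on this measure. Library medians over the members averaged 10.2 ± 0.556 FPKM at 10 days and 1.71 ± 0.121 FPKM at 0 hr (SD, n = 4 each). In these bulk libraries fewer cells of a type and less RNA per cell cannot be told apart.

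**Figure D1:**
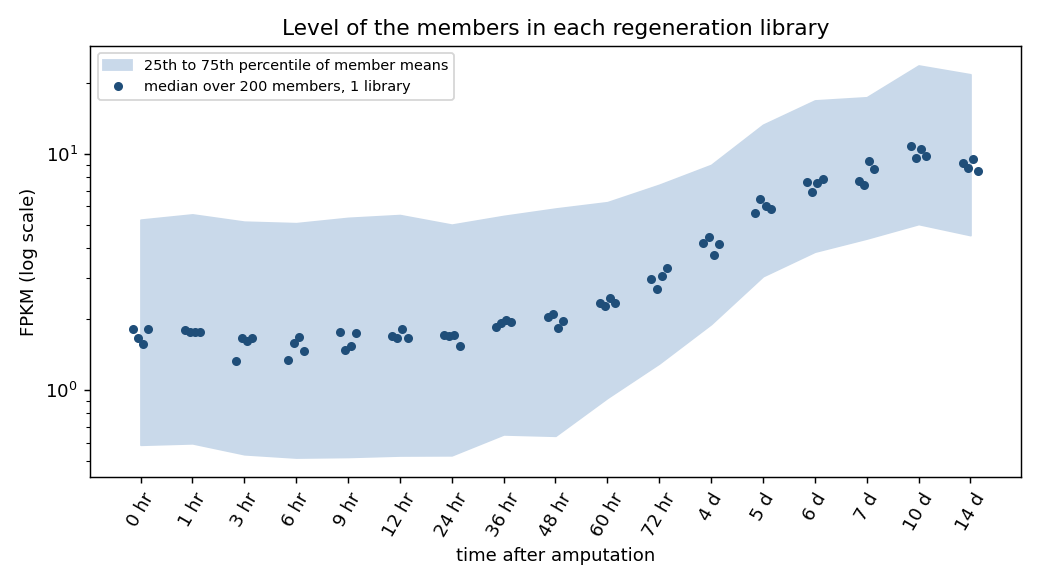
Median FPKM over the 200 members in each of the 68 regeneration libraries (points, log axis) against time after amputation, with the range between the 25th and 75th percentile of member means as a band. The medians stay between 1.33 and 2.11 FPKM in the libraries up to 48 hr and lie between 9.63 and 10.8 FPKM in the 4 libraries at 10 days.

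The size of the rise was spread over a wide range. The log2 difference at 10 days had a median of 1.70 over the members, with quartiles at 1.53 and 1.97 and a highest value of 4.99. Among the 17087 transcripts with at least 2 FPKM at 10 days the median was 0.33. Median-ratio scaling of the libraries brought it to 0.04 and the median over the members to 1.43. In all 200 members the 4 libraries at 10 days lay above the 4 at 0 hr, which was so for 50.6% of the 17087 transcripts, and which the rule nearly fixes. The members had all been picked for a large rise, so nothing further is read from that count.

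The step from members to non-members was not a gap. The last member, SMED30004930, had 5.58, 5.39, 4.84 and 4.5 FPKM at 10 days and 1.13, 1.30, 1.54 and 1.34 FPKM at 0 hr, a log2 difference of 1.384. The first transcript outside, SMED30006007, averaged 805 ± 158 FPKM at 10 days and 308 ± 50.6 FPKM at 0 hr (SD, n = 4 each), a log2 difference of 1.382. Their levels differed far more than their rises did.

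The climb was spread over the times from 60 hr to 10 days. Over the members the log2 difference from 0 hr had a median of 0.09 at 48 hr, 0.48 at 72 hr, 0.83 at 4 days, 1.16 at 5 days, 1.48 at 7 days and 1.70 at 10 days. The earliest time from which a member stayed at 50% or more of its log2 difference at 10 days, called its time of rise here, was 4 days for 65 members, 5 days for 64, 6 days for 31 and 7 days for 8, together 168 of 200. It was 72 hr or earlier for 26 members, with 15 of them at 72 hr and 7 by 48 hr. For 6 members it was 10 days itself. By 7 days, 143 members had at least 80% of the difference they showed at 10 days.

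**Figure D2:**
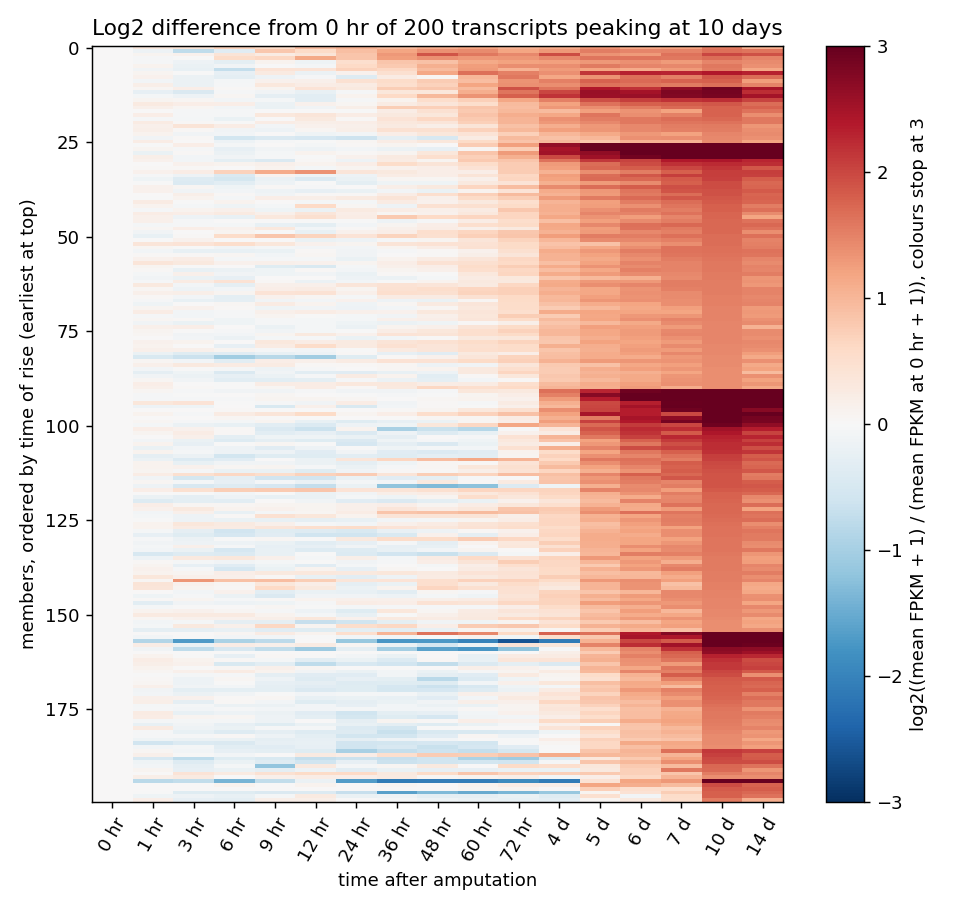
Log2 difference from 0 hr of each of the 200 members (rows) at the 17 times (columns), ordered by time of rise (the earliest time from which 50% of the 10 day difference was kept), with colours that stop at 3 in either direction. The 26 earliest members are at the top, 168 members have a time of rise of 4 to 7 days, and a few rows are blue before they turn red.

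The level reached at 10 days was in most members close to the level at 14 days. The second highest difference of a member was at 14 days for 111 members, at 7 days for 68, at 6 days for 13, at 5 days for 6 and at 4 days for 2. The gap between the highest and the second highest difference had a median of 0.079 on the log2 scale. The value at 14 days was within 0.25 of that at 10 days in 156 members and at least 0.5 lower in 6. The 4 libraries at 14 days all lay under the 4 at 10 days in 13 members, or 6.50%, against 8.44% of the 17087 transcripts. The 4 libraries at 7 days all lay under those at 10 days in 61 members, or 30.5%, against 5.82% of those transcripts. The rule used these values and set 10 days above every other time, so nothing is read from these shares. With median-ratio scaling 64 of the 200 had another time as their largest difference, for 38 of them 14 days and for 22 of them 7 days.

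The members with the largest rise were close to undetected in fresh fragments. SMED30024988, a transcript of 352 bases, had 31.8, 28.6, 34.6 and 32.5 FPKM at 10 days and 0.143, 0, 0 and 0 FPKM at 0 hr. That is 702 reads in the 4 libraries at 10 days and 1 read at 0 hr. Its mean was 0.0392 FPKM at 48 hr, 1.44 at 72 hr, 5.40 at 4 days, 12.3 at 5 days, 30.6 at 7 days and 31.9 at 10 days. The transcript was thus almost undetected up to 48 hr, and its means at 7 and 10 days were close. SMED30034460, of 351 bases, had 30.2, 28.6, 19.3 and 45.7 FPKM at 10 days and 0.143, 0.371, 0.174 and 0.289 FPKM at 0 hr, with means of 5.93 FPKM at 4 days and 30.6 FPKM at 7 days. No library of either transcript at 10 days overlapped with 0 hr, which was a condition for naming them and was met by all 200 members.

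The most abundant members were already abundant in fresh fragments. SMED30007629 had 737, 763, 675 and 824 FPKM at 10 days and 178, 265, 269 and 182 FPKM at 0 hr. SMED30017545, of 507 bases, had 338, 336, 432 and 381 FPKM at 10 days and 91.1, 99.6, 125 and 89.9 FPKM at 0 hr. The second of them took an early step, with means of 107 ± 38.2 FPKM at 48 hr, 305 ± 55.5 at 72 hr, 231 ± 92.4 at 4 days and 372 ± 45.3 at 10 days (SD, n = 4 each). Of the members, 29 had at least 50 FPKM at 10 days. At 0 hr, 45 members were under 0.5 FPKM, 103 between 0.5 and 5 FPKM, and 52 at 5 FPKM or more.

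The shape shared by most members is shown by the pair that followed the median profile most closely over the 17 times. SMED30028579, of 1887 bases, had a Pearson r of 0.996 with it, a description over 17 points that share the libraries. It had 3.48, 3.47, 2.40 and 2.97 FPKM at 10 days and 0.479, 0.483, 0.388 and 0.538 FPKM at 0 hr. SMED30005718, of 1784 bases, had an r of 0.995, with 15.6, 15.8, 15.7 and 15.6 FPKM at 10 days and 0.873, 0.547, 0.308 and 0.797 FPKM at 0 hr. The means of both were higher at each successive time between 48 hr and 10 days, those of SMED30005718 being 2.42 FPKM at 72 hr, 5.40 at 4 days, 8.53 at 5 days and 14.4 at 7 days.

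**Figure D3:**
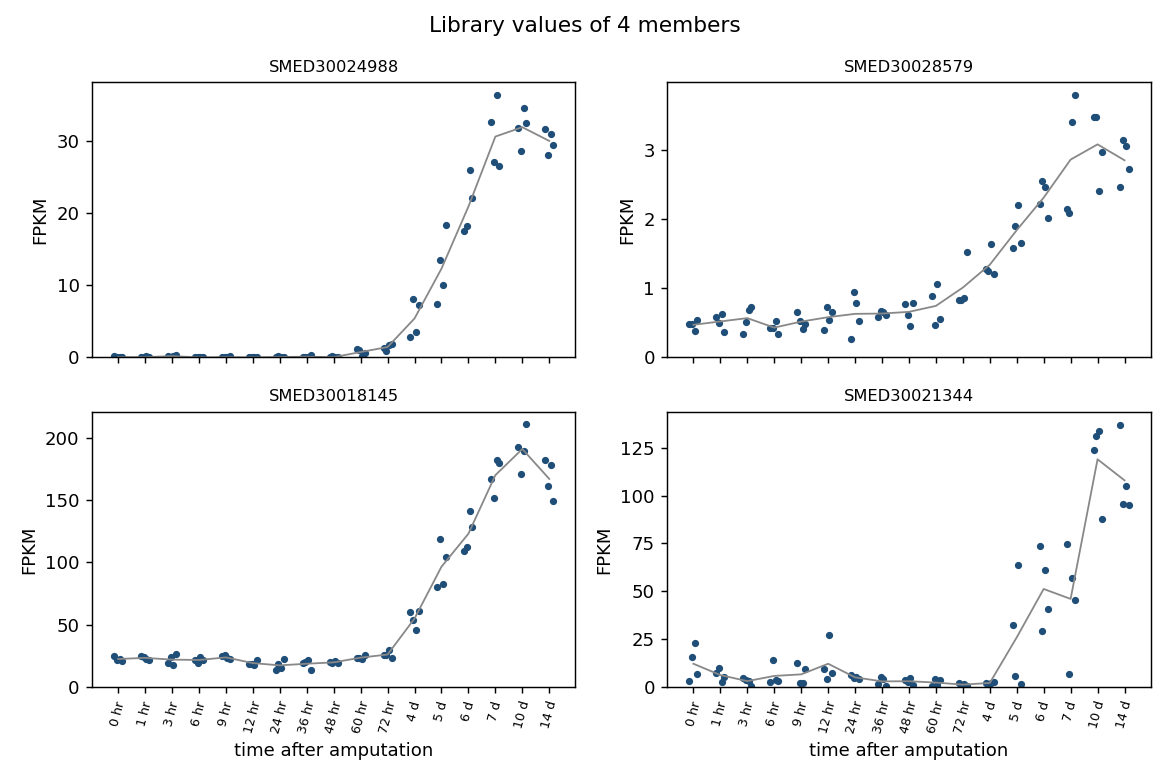
FPKM of 4 members in each regeneration library (points) with the mean of each time (line), against time after amputation, each panel on its own linear scale from 0. SMED30024988, SMED30028579 and SMED30018145 climb from 72 hr on, and SMED30021344 is lowest at 72 hr, with a mean of 1.18 FPKM, and uneven between libraries at 5 and 7 days.

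In most members the 4 libraries at 10 days had similar values. The highest library held a median of 28.2% of the summed FPKM of the 4, and the coefficient of variation at 10 days had a median of 11.1%. The time of the largest difference was less firm, since leaving out 1 of the libraries at 10 days gave 17 to 41 of the 200 members another time, 41 of them without replicate 1, and kept 153 to 166 of the 200. The share was highest for SMED30025846, of 206 bases, with 13.2, 6.74, 6.46 and 6.90 FPKM at 10 days and 0.244, 0, 0.296 and 0.493 FPKM at 0 hr. Replicate 1 alone gave 39.6% of its sum. In SMED30025859, of 347 bases, replicate 3 gave 39.3%, with 16.3, 17.2, 28.2 and 10.0 FPKM at 10 days and 0 in each library at 0 hr, or 390 reads against 0 reads.

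Not all members were level before the climb. In 36 members the difference from 0 hr was -0.5 or lower at a time up to 48 hr, and in 8 it was -1 or lower at a time up to 72 hr. The median of the means of those 8 was 4.96 FPKM at 0 hr, 2.35 at 60 hr, 2.46 at 72 hr, 8.23 at 5 days, 37.8 at 10 days and 33.1 at 14 days. The lowest points were those of 2 transcripts named after their values were seen. SMED30021344, of 1031 bases, had means of 12.1 FPKM at 0 hr, 2.96 at 48 hr, 1.18 at 72 hr, 2.06 at 4 days, 46.0 at 7 days, 119 at 10 days and 108 at 14 days. SMED30022058, of 803 bases, had means of 3.35 FPKM at 0 hr, 0.0326 at 48 hr, 0.155 at 72 hr, 0.0203 at 4 days, 9.79 at 7 days, 42.1 at 10 days and 34.5 at 14 days. Both had their lowest means at 72 hr or 4 days and ended well above the level of fresh fragments.

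The same 2 transcripts differed strongly between libraries of one time while they climbed. SMED30022058 had 41.1, 43.2, 42.2 and 41.9 FPKM at 10 days, nearly equal in its 4 libraries, and 0.375, 3.32, 7.75 and 1.96 FPKM at 0 hr. At 5 days it had 7.84 and 10.6 FPKM in replicates 1 and 3, and 1.00 and 0.221 FPKM in replicates 2 and 6. SMED30021344 had 124, 131, 134 and 87.6 FPKM at 10 days and 2.87, 15.8, 23.1 and 6.60 FPKM at 0 hr. At 5 days it had 32.4 and 63.6 FPKM in replicates 1 and 3, and 5.88 and 1.72 FPKM in replicates 2 and 6. In 4 members the 5 day replicates 1 and 3 lay at least 2-fold above replicates 2 and 6 on the FPKM + 1 scale, or 2.00% of members against 0.919% of the 17087 transcripts. The split counted is the one seen in these 2 transcripts, which are among the 4, so nothing is read from that share. The members as a whole showed no such split, with medians of 5.62 and 6.02 FPKM in replicates 1 and 3, and 6.46 and 5.85 FPKM in replicates 2 and 6.

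The members were shorter than other transcripts of the fragments. A length could be recovered for 198 of them, with a median of 706 bases and a range of 154 to 7253, against a median of 1247 bases over 15317 transcripts with at least 2 FPKM at 10 days. Under 500 bases were 73 members, or 36.9%, against 13.8% of those transcripts. At 2000 bases or more were 26 members, or 13.1%, against 24.8%. A short transcript yields fewer reads at the same FPKM, and the part of length in the choice of members was not tested.

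The level in the regenerating fragment was next set beside intact worms. These libraries are in a table of their own that was normalized separately, so the values are a description. The 3 untreated animals all lay above the 4 fragments at 0 hr in 185 members, or 92.5%, against 38.8% of the 17087 transcripts. The median log2 difference of untreated animals from 0 hr fragments was 0.97 over the members and 0.14 over those transcripts. The 4 fragments at 10 days all lay above the 3 untreated animals in 168 members, or 84.0%, against 44.9% of transcripts, and at 14 days in 148 members, or 74.0%, against 38.8%. The median log2 difference of 10 day fragments from untreated animals was 0.76 over the members and 0.19 over the transcripts. The members were chosen for a low value at 0 hr relative to 10 days, so these shares rest on values the rule used and nothing is read from them.

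Named members lay on both sides of the intact worm at 10 days. SMED30024988 had 31.9 ± 2.50 FPKM at 10 days, against 16.8 ± 2.09 FPKM in untreated animals, and it was near 0 in fresh fragments. SMED30018145, of 467 bases, had 191 ± 16.7 FPKM at 10 days, against 120 ± 5.83 FPKM in untreated animals, and 22.4 ± 1.90 FPKM at 0 hr. The pair that dipped was lower at 10 days than in untreated animals. SMED30021344 had 119 ± 21.4 FPKM at 10 days, against 160 ± 15.2 FPKM in untreated animals, and SMED30022058 had 42.1 ± 0.863 FPKM, against 54.2 ± 2.28 FPKM (SD, n = 4 fragments and 3 animals).

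Which cells held the members in the intact worm was asked in the X1, X2 and Xins sorts, which had no part in the choice of members. Members were scarce in X1, low in X2 and high in Xins. Library medians over the 200 members averaged 0.181 ± 0.019 FPKM in X1, 0.905 ± 0.0584 in X2 and 4.63 ± 0.920 in Xins (SD, n = 3 each). The 3 groups of libraries did not overlap on this measure. Of the 200 members, 180 had their highest mean in Xins (90.0%, against 67.0% of the 17087 transcripts), 8 in X2 (4.00% against 14.6%) and 12 in X1 (6.00% against 18.4%). In 111 members, or 55.5%, every X1 library lay under every X2 library and every X2 library under every Xins library, against 28.3% of transcripts. In 137 members, or 68.5%, no X1 library reached 1 FPKM, against 39.0%, and in 22 none of the 9 sorted libraries did, or 11% against 13.6%.

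Against Xins, 132 of the 200 members were lower in X1 and 3 were higher (limma, Benjamini-Hochberg adjusted p under 0.05 and a log2(FPKM + 1) difference of at least 1). Of the members tested, 85.7% were lower and 1.95% higher, against 39.9% and 8.41% of all 15347 transcripts tested. The test took in 154 members with at least 1 FPKM in 3 of the 9 libraries, and 46 were not tested. Of the 132 lower members, 88 had no X1 library at 1 FPKM, so that they entered through the other groups, and 44 had one. The median log2 difference was -1.81 over all 200 members and -0.17 over all 32821 transcripts with a value. FPKM put the median of the tested transcripts at -0.68. After median-ratio scaling the same median was 0.00, and 111 of 145 tested members were lower and 8 higher, while of all transcripts 24.9% were lower and 22.5% higher.

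Against Xins, 111 members were lower in X2 and 2 were higher, or 72.1% and 1.3% of the members tested. Of all transcripts tested, 18.2% were lower and 1.69% higher. The median log2 difference was -1.30 over all 200 members and -0.12 over transcripts with a value. Of the 111 lower members, 37 had no X2 library at 1 FPKM and 74 had one.

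SMED30018145 was the member with the largest deficit in X1 among those with at least 5 FPKM in Xins and no overlap between libraries. It had 0.596, 0.859 and 0.786 FPKM in X1, against 374, 197 and 192 FPKM in Xins, and 16.2, 15.0 and 19.9 FPKM in X2. Its log2 difference from Xins was -7.12 ± 0.23 for X1 (SE, limma, adjusted p = 7.26e-10) and -3.76 ± 0.23 for X2 (adjusted p = 3.26e-07). The transcript was thus all but absent from X1 and intermediate in X2. SMED30004487, of 809 bases, had 1.75, 1.17 and 2.65 FPKM in X1 and 419, 263 and 241 FPKM in Xins, a difference of -6.74 ± 0.23 (SE, limma, adjusted p = 1.11e-09).

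For X2 the largest deficits were in transcripts that also led the time course. SMED30034460 had 0.336, 1.92 and 0.636 FPKM in X2, against 73.2, 67.8 and 64.3 FPKM in Xins, a difference of -5.22 ± 0.25 (SE, limma, adjusted p = 8.24e-08). SMED30007131, of 302 bases, had 0.0976, 1.12 and 4.99 FPKM in X2, against 80.6, 63.4 and 69.8 FPKM in Xins, a difference of -4.90 ± 0.52 (SE, limma, adjusted p = 1.63e-05). The second was still at a mean of 0.845 FPKM at 5 days and 4.65 FPKM at 7 days, and reached 13 ± 1.34 FPKM at 10 days, against 0.0538 FPKM at 0 hr.

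A few members went the other way. SMED30012489, of 686 bases, had 10.4, 13.4 and 15.4 FPKM in X1, against 4.21, 4.66 and 3.99 FPKM in Xins, and 5.84, 8.47 and 9.08 FPKM in X2. Its X1 libraries all lay above its Xins libraries, with a difference of 1.40 ± 0.18 (SE, limma, adjusted p = 2.94e-05). The other two members higher in X1, SMED30009207 and SMED30008927, named after their values were seen, had means of 4.31 ± 0.948 and 1.86 ± 0.551 FPKM in X1, against 1.02 ± 0.244 and 0.370 ± 0.249 FPKM in Xins (SD, n = 3 each). The call of SMED30008927 was lost without X1 replicate 2 or Xins replicate 1, with log2 differences of 0.94 in both cases. None of these members was called different between PIWI-1 high and PIWI-1 negative cells. Those differences were 0.66 for SMED30012489, 0.27 for SMED30009207 and 0.68 for SMED30008927 (limma, adjusted p = 0.141, 0.436 and 0.0816).

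In X2, SMED30021344 had 16.5, 20.2 and 27.4 FPKM, against 5.26, 13.4 and 10.0 FPKM in Xins, and 1.48, 1.22 and 3.62 FPKM in X1. X2 was its highest population, with a difference from Xins of 1.14 ± 0.34 (SE, limma, adjusted p = 0.015). That call was lost without X2 replicate 3 (0.95, adjusted p = 0.0665) or Xins replicate 1 (0.80, adjusted p = 0.0456). SMED30031774, named after its values were seen, had a mean of 2.86 ± 0.983 FPKM in X2 and 0.806 ± 0.0719 FPKM in Xins, and its call was lost without X2 replicate 1, with a difference of 0.87. In X1, SMED30021344 was lower than in Xins, by -1.76 ± 0.34 (SE, limma, adjusted p = 0.00058), as most tested members were.

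**Figure D4:**
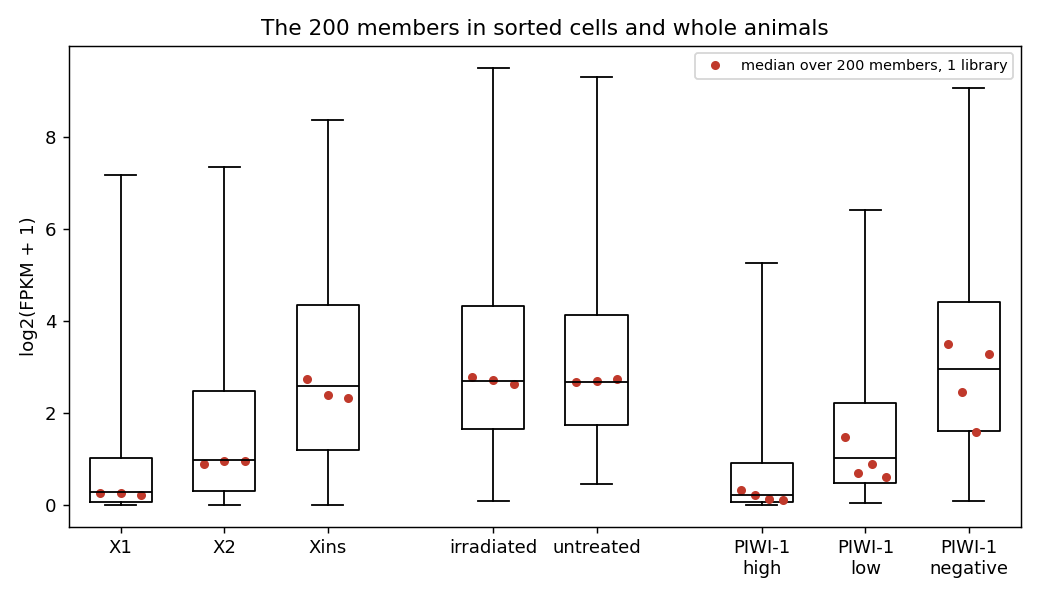
Log2(FPKM + 1) of the 200 member means in each sorted population and in whole animals as box plots (box from the 25th to the 75th percentile, line at the median, whiskers to the lowest and highest member), with the median over the members in each library as points. The library medians are lowest in X1 and highest in Xins, lowest in PIWI-1 high and highest in PIWI-1 negative cells, in that order within each of the 4 sort replicates, and those of irradiated and untreated animals lie together.

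Sorting by PIWI-1 protein gave the same order of populations. Library medians over the 200 members averaged 0.141 ± 0.0784 FPKM in PIWI-1 high cells, 0.936 ± 0.572 in PIWI-1 low cells and 6.37 ± 3.83 in PIWI-1 negative cells (SD, n = 4 each). The spread was wide in the negative cells, where the 4 sort replicates gave 8.75, 10.3, 1.99 and 4.43 FPKM, and replicate 3 was low. Replicate 2 was the highest in all 3 populations, with 0.246 FPKM in the high, 1.77 in the low and 10.3 in the negative population. It also had the most transcripts of any kind at 1 FPKM in each, 14747, 16804 and 19473 in that order. Replicate 3 had the fewest in the negative cells, 12897. These shifts are thus not read as particular to the members. Within every sort replicate the median was lowest in the high and highest in the negative population, also in replicate 3, where PIWI-1 high cells had 0.0873 FPKM, low cells 0.621 FPKM and negative cells 1.99 FPKM. Of the 200 members, 176 had their highest mean in PIWI-1 negative cells (88.0%, against 55.4% of the 17087 transcripts), 19 in low (9.50% against 14.6%) and 5 in high (2.50% against 30%). In 6 members no PIWI-1 library reached 1 FPKM, or 3% against 2.71%. The full order with no overlap between libraries held in 54 members, or 27.0%, against 6.57% of transcripts.

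Against PIWI-1 negative cells, 117 of the 200 members were lower in PIWI-1 high cells and 1 was higher, where 27.6% of 15896 transcripts tested were lower and 19.7% higher. The fit took in 148 members and left out 52, and 79.1% of the members tested were lower and 0.676% higher. Of the 117, 84 had no PIWI-1 high library at 1 FPKM and 33 had one. In PIWI-1 low cells 105 members were lower and 5 higher, or 70.9% and 3.38% of the members tested. Of transcripts tested, 18.9% were lower and 13.8% higher. Of the 105, 92 had a PIWI-1 low library at 1 FPKM. The median log2 difference from negative cells over all 200 members was -2.25 in high and -1.66 in low cells, and it was -0.07 in both over transcripts with a value.

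SMED30016225, of 420 bases, showed the largest deficit in PIWI-1 high cells on the log2(FPKM + 1) scale. It had 0.400, 1.77, 1.16 and 1.32 FPKM in PIWI-1 high cells, against 822, 491, 247 and 552 FPKM in PIWI-1 negative cells, for sort replicates 1 to 4, and the PIWI-1 low cells lay between 8.49 and 35.0 FPKM. The difference was -7.85 ± 0.46 (SE, limma, adjusted p = 6.63e-08). SMED30018145, which also had the largest deficit in X1, had 0.0599, 1.74, 0.560 and 0.875 FPKM in PIWI-1 high cells, against 760, 397, 170 and 353 FPKM in PIWI-1 negative cells, a difference of -7.75 ± 0.48 (SE, limma, adjusted p = 6.63e-08). In PIWI-1 low cells it averaged 14.7 ± 8.16 FPKM and differed from negative cells by -4.68 ± 0.48. The largest deficit in PIWI-1 low cells on that scale was that of SMED30008875, of 368 bases, with 2.21, 9.34, 3.05 and 6.09 FPKM in low cells and 291, 182, 64.9 and 135 FPKM in negative cells, a difference of -4.74 ± 0.48 (SE, limma, adjusted p = 1.44e-05).

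The member higher in both PIWI-1 high and low cells was SMED30024537, of 349 bases. It had 4.73, 4.27, 2.57 and 3.09 FPKM in PIWI-1 high cells and 10.2, 10.7, 6.74 and 7.96 FPKM in PIWI-1 low cells, against 0.237, 2.28, 0.177 and 1.2 FPKM in PIWI-1 negative cells. Neither group overlapped with the negative cells, and the differences were 1.35 ± 0.38 for high (SE, limma, adjusted p = 0.00789) and 2.44 ± 0.38 for low cells (adjusted p = 0.000227). In the live sort it averaged 19.6 ± 2.97 FPKM in X1, 15.2 ± 2.56 in X2 and 10.2 ± 3.68 in Xins (SD, n = 3 each). The difference of X1 from Xins, 0.93 ± 0.24, was under the size called. It began its climb early, at a mean of 1.67 FPKM at 48 hr and 5.32 FPKM at 10 days, against 0.191 FPKM at 0 hr.

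The other four members higher in PIWI-1 low cells, named after their values were seen, were SMED30014338, SMED30007629, SMED30026598 and SMED30015573. SMED30014338 averaged 4.34 ± 1.2 FPKM in low and 0.890 ± 0.760 FPKM in negative cells, with no overlap (1.57 ± 0.39, SE, limma, adjusted p = 0.00601). In X1 it was called lower than in Xins, with a difference of -2.126. SMED30007629 differed from negative cells by 1.457 ± 0.444 in low cells (SE, limma, adjusted p = 0.0185), with overlap. It was called lower than in Xins both in X1 (-2.385) and in X2 (-1.334). SMED30026598 averaged 36.4 ± 6.80 FPKM in low and 16 ± 12.1 FPKM in negative cells, and SMED30015573 9.09 ± 3.83 and 3.70 ± 3.83 FPKM (SD, n = 4 each), with overlap in both. Both were lower in X2 than in Xins by more than 4 on the log2 scale, with means of 7.45 FPKM in X2 and 144 FPKM in Xins for SMED30026598, and 0.931 and 36.5 FPKM for SMED30015573. In X1 and in PIWI-1 high cells both were called lower, SMED30026598 with differences of -6.20 from Xins and -3.10 from negative cells, and SMED30015573 with -4.90 and -1.84. X2 and PIWI-1 low cells are not the same population. The count of 5 was 3 without PIWI-1 low replicate 1 or 4 and without PIWI-1 negative replicate 2, 3 or 4. Of all transcripts tested, 9.64% to 17.2% were higher in those fits. The calls of SMED30007629, SMED30026598 and SMED30015573 were each lost without at least 2 of the libraries, taken 1 at a time. Those fits did not pair the libraries by replicate number. With replicate number as a block and all libraries, each kept its call (limma, adjusted p = 0.000202, 0.00861 and 0.00624 in that order). With a pseudocount of 0.1 SMED30026598 and SMED30015573 lost it, and SMED30015573 also lost it with no filter.

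In 3 members, SMED30007219, SMED30003428 and SMED30013623, the level was at least 1 FPKM in every untreated animal and under 1 FPKM in every sorted library, or 1.5% of members against 1.81% of the 17087 transcripts.

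The sorts on live and fixed cells were read side by side for the 134 members tested in both. The difference was below 0 for both X1 from Xins and PIWI-1 high from negative in 120 members, or 89.6%, against 49.4% of the 13846 transcripts tested in both. It was above 0 for both in 7, or 5.22% against 27.7%. The number called lower in both was 103, or 76.9% against 23.3%. Of these 103, 65 had no library of X1 or of PIWI-1 high cells at 1 FPKM, so that they entered both tests through the other groups, 26 had one in both sorts and 12 in one sort.

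**Figure D5:**
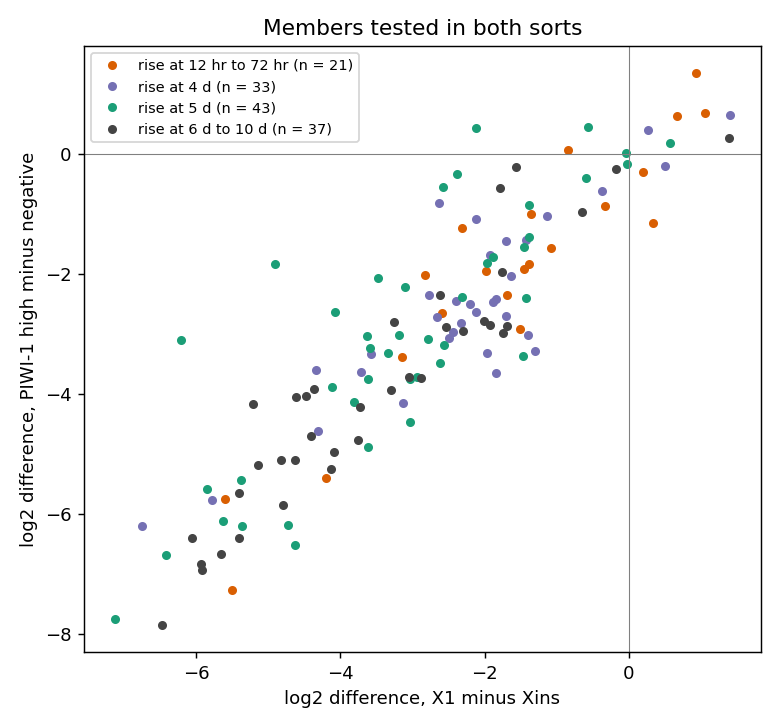
Log2 difference of PIWI-1 high from PIWI-1 negative cells against log2 difference of X1 from Xins cells for the 134 members tested in both sorts (points), coloured by time of rise. Most points, 120 of 134, lie below 0 on both axes, and 7 lie above 0 on both.

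The deficit in the neoblast populations was largest in the members with the latest time of rise, as a description of classes taken from the time course. The median log2 difference of X1 from Xins was -1.31 over the 26 members with a time of rise by 72 hr, -1.17 over the 65 of 4 days, -2.24 over the 64 of 5 days and -3.10 over the 45 of 6 to 10 days. For PIWI-1 high from negative cells it was -1.76, -2.06, -2.23 and -3.91 in the same order of classes. The median level at 10 days over these classes was 10.6, 8.21, 12.9 and 17.5 FPKM. The part of expression level in this order was not tested.

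No member tested changed by the size called after irradiation. Library medians over the 200 members averaged 5.53 ± 0.311 FPKM in irradiated and 5.48 ± 0.165 FPKM in untreated animals (SD, n = 3 each), and the libraries overlapped. None of the 187 members tested was called higher, where 0.168% of 19651 transcripts tested were higher, and none was called lower, where 1.74% were lower (limma, with the thresholds given above). So few transcripts were called in all that nothing particular to the members is read from this. At an unadjusted p under 0.05, 50 of the 187 members tested were higher, against 18.4% of transcripts tested. Lower were 25 of the 187, against 24.5% of transcripts. With an adjusted p under 0.05 and no bound on size, 33 of the 187 were higher, against 12.8% of transcripts. Lower were 13 of the 187, against 19.6%. All 187 differences lay between -0.58 and 0.68, and 183 of them within 0.5 of 0. The median over all 200 members was 0.05. Another 13 members were too low to be tested. They included SMED30009207 and SMED30008927, which were called higher in X1 than in Xins. In both of these, and in SMED30004129 and SMED30012594, every irradiated library lay under every untreated library. In the rest of the untested members the libraries overlapped.

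The ends of that range were shifts of single transcripts, on the log2(FPKM + 1) scale, which understates ratios at levels as low as those of the first 2 below. SMED30012489, called higher in X1 than in Xins, had 0.956, 0.864 and 0.905 FPKM in irradiated animals, against 1.98, 1.71 and 1.87 FPKM in untreated animals. The 2 groups did not overlap, and the difference was -0.58 ± 0.08 (SE, limma, adjusted p = 0.0017), under the size called. SMED30024537 was lower in irradiated animals too, with 1.74, 1.62 and 1.55 FPKM in irradiated and 2.45, 2.93 and 3.24 FPKM in untreated animals, a difference of -0.55 ± 0.09 (SE, limma, adjusted p = 0.00437). At the other end SMED30024394, of 333 bases, had 63.7, 74.2 and 71.1 FPKM in irradiated animals, against 38.9, 47.4 and 43.0 FPKM in untreated animals, a difference of 0.68. The member nearly absent from X1, SMED30018145, had 144, 138 and 138 FPKM in irradiated and 124, 114 and 124 FPKM in untreated animals, a difference of 0.22 ± 0.05 (SE, limma, adjusted p = 0.0122).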

How the data were processed

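The authors deposited 3 tables of FPKM values for 36035 transcripts, 1 column per library and 96 in all, per the labels. The submitters' processing notes list Bowtie2 2.2.9 and edgeR but give neither a role, and the reference build, the counting and the filters are not given in the sources used here. Low FPKM values are whole multiples of a step, from which library totals and transcript lengths were recovered (33537 transcripts, 99.7% to 100% of values within 0.05 of a whole read or the printed precision). They served for depth and length only, and depth limits low transcripts.

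Members were found by the rule in the opening, from the deposited FPKM. Differences between sorted cells and between whole animals were tested with limma 3.58.1 in R 4.3.3 (lmFit, eBayes with trend, two-sided, Benjamini-Hochberg adjustment over all transcripts tested) on log2(FPKM + 1), which understates ratios near 0. A first fit held the X1, X2 and Xins libraries, another the whole animals and another the 12 PIWI-1 libraries. Transcripts that reached 1 FPKM in no more than 2 libraries (3 for PIWI-1) were left out, and a call needed an adjusted p below 0.05 with a log2 difference of 1 or more. The fits were also run on simulated normal values with known changes. These took the spread of the reference group, so the run does not cover the spread of low values in X1 or PIWI-1 high cells. Tables were normalized separately, so nothing was tested between them.

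The members and lists were chosen with earlier results of these data known. Named transcripts are those with the 2 highest rises, the 2 highest levels at 10 days, the 2 closest to the median profile, the last inside and first outside the bound, the 2 resting most on 1 library, and for each test the 2 largest called differences in each direction with a mean of 5 FPKM or more on the higher side and separate libraries. Others are marked as named after their values were seen, or are quoted for the range they end.

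Same-number PIWI-1 libraries deviated together from their group means (12 of 12 pairs above 0.1, median 0.67), so the numbers pair them, a pairing read from the values since no label states it. This did not hold for the X cells (3 of 9 pairs) or whole animals (1 of 3). Unless a block is named, the PIWI-1 fits did not use the pairing, so their SE hold the spread between replicate numbers. For SMED30024537 in PIWI-1 low against negative cells the SE was 0.382, and 0.238 with the block. Alternatives were a pseudocount of 0.1, no filter, median-ratio scaling, a replicate block, and leaving out each library.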

Additional observations from a re-analysis of the deposited data

Results flagged for a closer look

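In 8 of 92 groups of 4 libraries examined, 1 library stood far from the other three, its gap to the nearest of them being more than 0.829 of the whole range. Chance marks about 1 in 20 such groups where values scatter normally. A group with only 1 library above 0 is always marked, so the number marked cannot be set against that rate. The median over the members was 1.82 FPKM in replicate 5 at 12 hr, where the others had 1.67 to 1.69, 1.54 FPKM in replicate 6 at 24 hr (others 1.69 to 1.72), and 1.33 FPKM in replicate 1 at 3 hr (others 1.62 to 1.67). These shifts are small beside the rise by 10 days.

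SMED30025846 had 13.2 FPKM in replicate 1 at 10 days, where the others had 6.46 to 6.90. At 0 hr SMED30024988 had 0.143 FPKM in replicate 1, SMED30007131 0.215 in replicate 2, SMED30008927 0.0893 and SMED30031774 0.32 in replicate 4, each with 0 in the other three libraries, which is 1 or 2 reads.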

How the results depend on the processing

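The rule was met by 418 transcripts, by 164 after median-ratio scaling, and by 397 to 511 when 1 library was left out. Of the 200 members, 134 were kept with that scaling, 152 with a pseudocount of 0.1, 158 with medians, and 153 to 192 without 1 library. When 1 library was left out, members lower in X1 numbered 131 to 132 and in X2 108 to 112. In PIWI-1 high they numbered 112 to 123 and in PIWI-1 low 96 to 112. Of all transcripts tested, 39.0% to 40.3%, 17.6% to 19.2%, 24.5% to 32.4% and 15.9% to 24.5% were lower, in the same order. The small counts moved more. Members higher in X1 were 8 with median-ratio scaling, where 22.5% of all transcripts tested were higher. They were 2 to 4 without 1 library, where 8.35% to 8.68% of transcripts were. Members higher in X2 were 5 with that scaling and 5 with a pseudocount of 0.1, where 5.4% and 2.99% of transcripts were. They were 1 to 2 without 1 library, where 1.47% to 1.84% of transcripts were. Members higher in PIWI-1 low were 3 with a pseudocount of 0.1, where 15.5% of transcripts were. They were 3 to 6 without 1 library, where 9.64% to 17.2% of transcripts were. The causes were not tested. With the replicate block, 121 members were lower and 1 higher in PIWI-1 high, 111 lower and 5 higher in PIWI-1 low, 132 and 3 in X1, 111 and 2 in X2, and 0 after irradiation. The call after irradiation was 0 under every alternative run. Over 210 settings of 19 results for single transcripts, 190 kept their call, 20 lost it and 0 reversed. Depth limits values under 1 FPKM, where 137 of 200 members lay in every X1 library.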

Other observations

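One whole-animal library of untreated wild-type worms, deposited with the PIWI-1 sorts, is placed in no group by its labels. The median over the 200 members was 6.92 FPKM there, and 193 members had at least 1 FPKM.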
